A study of Mus musculus with 4 samples.

Results

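The transcription factors that give epidermal cells their identity were followed in 4 RNA samples of primary mouse keratinocytes. The set comprised 9 genes: Trp63, Grhl1, Grhl2, Grhl3, Ovol1, Klf5, Gata3, Tfap2a and Tfap2c. They were chosen by name, as every probe that the platform annotation assigns to 1 of these symbols. This gave 14 probes of the 25697 on the array, and 9 of the 16593 genes measured. Of the 14 probes, 11 were detected on all 4 arrays (detection p under 0.01), 2 were detected on 2 arrays, and 1, the second probe of Grhl1, was detected on none. At the level of genes, 8 of the 9 were detected on every array, and Grhl3 on 2.

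Stratified epidermis is built from a basal layer of dividing keratinocytes whose daughters move outward and cornify. p63, the product of Trp63, is the p53 relative that commits surface ectoderm to this fate and maintains the basal layer, and the AP-2 factors, Grainyhead-like factors and the zinc finger factors of this set act with it or after it on keratin, junction and barrier genes. Notch signalling in keratinocytes promotes exit from the basal layer, and it and p63 are known to restrain each other.

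Each of the 4 groups was 1 bead array of 1 RNA sample: without DAPT on day 4, with 2.5 uM DAPT on day 4, without DAPT on day 7, and with 2.5 uM DAPT on day 7. DAPT inhibits gamma-secretase, the protease that frees the active intracellular part of Notch receptors. In all 4 groups the keratinocytes came from newborn mice of 129 background with a Pou5f1::GFP transgene, a reporter of an embryonic stem cell gene, and had been transduced with transcription factors that drive reprogramming, which the labels do not name. Groups follow the sample titles, since the treatment field reads DAPT for every sample. No group had a replicate, so a difference below compares 2 arrays, and separate cultures are not stated. In such bulk RNA, fewer cells of a type and less RNA per cell cannot be told apart.

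Levels are log2 intensities after background correction, addition of an offset and quantile normalization of the 4 arrays together, so that 1 unit is a 2-fold difference. The offset compresses differences of dim probes, and levels of different probes are not comparable. With no replicates, a pair of arrays was read against how far 2 detected probes of the same gene disagreed about their difference. This SD holds the error of probes alone and leaves out the spread between cultures, so a difference beyond it is not shown to exceed that spread. This SD was 0.46 for DAPT on day 4, 0.30 for DAPT on day 7, 0.53 for day 7 against day 4 without DAPT and 0.25 with DAPT. The untreated day 4 array stood apart: the 3 pairs that included it had SDs of 0.39 to 0.53, and the 3 other pairs 0.23 to 0.30. It also had the highest mean intensity, 472, against 365, 323 and 416 on the arrays of DAPT on day 4, no DAPT on day 7 and DAPT on day 7. Every difference with DAPT on day 4 and every difference between days without DAPT rests on that array. The values without it are those of DAPT on day 7 and of day 7 against day 4 with DAPT.

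The cells were checked against marker genes. Of 10 keratinocyte markers, 9 were detected on each array, and Krt1, a keratin of the spinous layer, on none. Their summed deposited intensity was 33224 without and 36161 with DAPT on day 4, and, on day 7, 14967 without and 21930 with it. All 9 fibroblast and mesenchymal markers were also detected on each array, with sums of 20759, 15583, 24924 and 31733 in the same order. The melanocyte sums were 671, 387, 564 and 166 over 6 markers, of which Tyr was detected on no array. With DAPT on day 7, 4 of the 5 melanocyte markers detected were at least 2-fold lower, where 0.495% of 9705 genes were. Their median was -1.49, and Dct and Pmel were each detected on 1 of the 2 arrays. With an offset of 50 in place of 16, 2 were at least 2-fold lower, with a median of -0.92. With median scaling in place of quantile normalization 3 were. Of 9705 genes, 13 were with the offset of 50 and 18 with median scaling. The endothelial markers Cdh5 and Kdr and the immune markers Ptprc, Cd207 and Cd74 were detected on none. The endothelial sums lay between 273 and 578 and the immune sums between 123 and 271. The marker sums are not normalized and also follow the brightness of each array. After normalization the median keratinocyte difference from day 4 to day 7 was -0.71 without and -0.58 with DAPT, beside 0.09 and -0.03 over all genes. Of the 9 detected, 7 and 9 were below 0, where 4332 of 9879 and 5207 of 9860 genes were. Krt10 at 0.76 and Perp at 0.73 were higher without DAPT. The mesenchymal medians were 0.73 and 0.96, with 8 and 9 of 9 above 0, where 5539 of 9879 and 4642 of 9860 genes were. Vim stood at -0.20 without DAPT. Most keratinocyte markers were thus lower and most mesenchymal markers higher on day 7, beside every day difference below. The part of this in those differences was not tested.

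**Figure D1:**
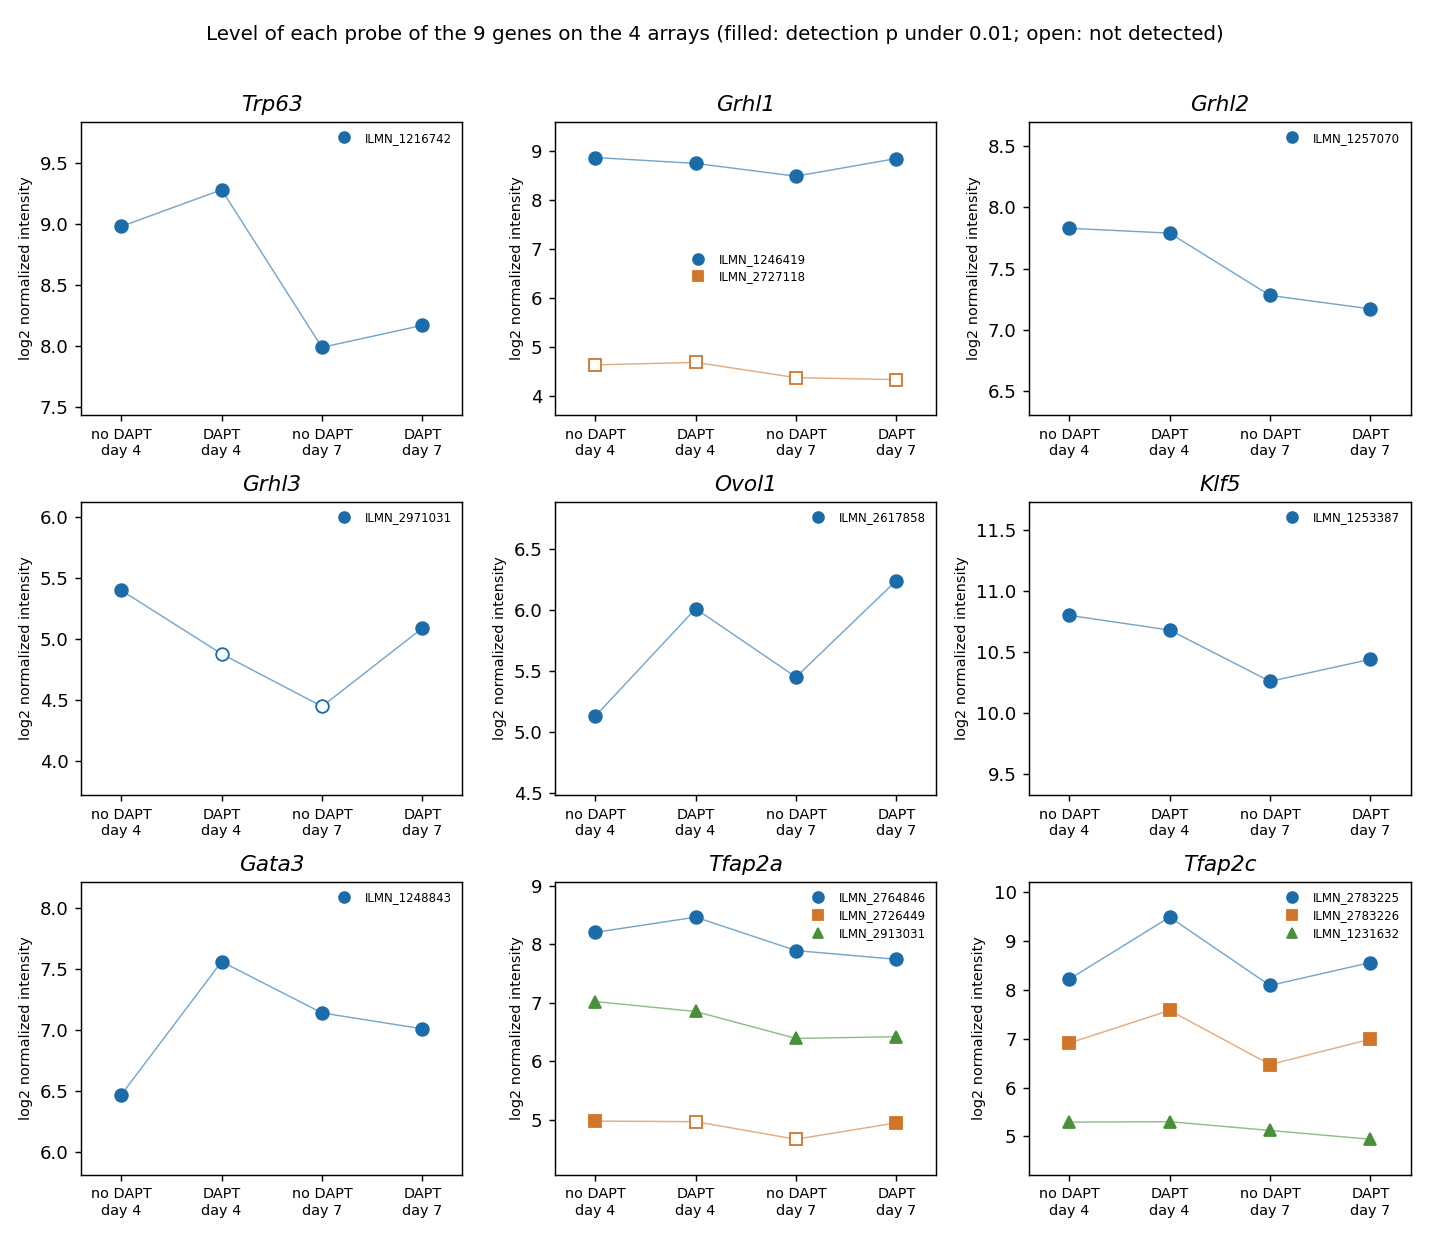
Normalized log2 intensity (y axis) of each probe of the 9 genes on the 4 arrays (x axis), 1 panel per gene. Lines join the values of 1 probe, filled symbols are detected and open symbols are not. Trp63 stood between 7.99 and 8.17 on both day 7 arrays and at 8.98 and 9.28 on both day 4 arrays, and Ovol1 was higher on both DAPT arrays.

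Trp63 was lower on day 7, with and without the inhibitor. Its 1 probe read 8.98 without and 9.28 with DAPT on day 4, and, on day 7, 7.99 without and 8.17 with it. The deposited intensities behind these levels were 656, 530, 168 and 285. Both day 7 levels thus lay below both day 4 levels, and the gap of 0.81 between the days was the only step in the order of the 4 arrays that exceeded the SD between probes. Day 7 stood below day 4 by a log2 difference of -0.99 without DAPT and -1.11 with DAPT, or 1.98-fold and 2.16-fold. The differences with DAPT, 0.31 on day 4 and 0.18 on day 7, lay within the SD between probes. The sources do not say which of the p63 isoforms, which start from separate promoters and differ in their ends, this probe reads.

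The Grainyhead-like genes did not share a pattern. Grhl2, a regulator of epithelial junction genes, was at 7.83 without and 7.79 with DAPT on day 4, and on day 7 at 7.28 without and 7.17 with it. It thus followed the day as Trp63 did, with day differences of -0.55 without and -0.61 with DAPT and DAPT differences of -0.05 and -0.10. Grhl1, a regulator of desmosomal cadherin genes, spanned 0.38 over the 4 arrays, at 8.86, 8.74, 8.48 and 8.84 in the same order. Only its drop to the lowest array, no DAPT on day 7, exceeded the SD between probes. The second Grhl1 probe had detection p between 0.07 and 0.713 and gives no direction.

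Grhl3, which controls barrier formation and the cornified envelope enzyme gene Tgm1, was the one gene of the set not detected on every array. Its deposited intensities were 38.7 without DAPT on day 4, 11.1 with DAPT on day 4, 0.302 without DAPT on day 7 and 17.9 with DAPT on day 7. It was detected on the first and the last of these arrays, and its detection p was 0.033 with DAPT on day 4 and 0.170 without DAPT on day 7. Where 1 array did not detect it, its difference is a bound, taken against the higher of its own signal there and the lowest detected signal on that array. Such a bound holds only for the processing used. With DAPT, Grhl3 was at least 1.43-fold lower on day 4 and at least 1.48-fold higher on day 7. Without DAPT it was at least 1.84-fold lower on day 7 than on day 4. With DAPT it was at least 1.15-fold higher, within the SD between probes. The log2 differences in this order were -0.52, 0.64, -0.95 and 0.21. With an offset of 50 in place of 16 they were -0.27, 0.28, -0.45 and 0.10.

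Ovol1 was higher with DAPT on both days. The gene encodes a zinc finger repressor that helps keratinocytes leave the cell cycle as they differentiate. Its probe read 5.13 without and 6.01 with DAPT on day 4, and, on day 7, 5.45 without and 6.24 with it, from deposited intensities of 27.0, 37.9, 18.3 and 63.2. Both DAPT levels were thus above both untreated levels, by 0.56 at the narrowest. The probe was dim but detected on all 4 arrays, and on the arrays without DAPT its intensity was close to background. The differences with DAPT were 0.88 on day 4 and 0.79 on day 7, or 1.84-fold and 1.73-fold. Between days Ovol1 differed by 0.32 without and 0.23 with DAPT, within the SD between probes. At deposited intensities this low the offset bears on the size: with an offset of 50 in place of 16 the DAPT differences were 0.51 and 0.50.

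Klf5, a zinc finger factor of dividing epithelial cells, was at 10.80 without and 10.68 with DAPT on day 4, and on day 7 at 10.26 without and 10.44 with it. No step in this order exceeded the SD between probes. Its day differences were -0.54 without DAPT, just past that SD of 0.53, and -0.24 with DAPT.

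Gata3 was lowest on the untreated day 4 array. This zinc finger factor acts in the inner root sheath of the hair follicle and in barrier lipid synthesis. It stood at 6.47 without and 7.56 with DAPT on day 4, and on day 7 at 7.14 without and 7.01 with it. The DAPT difference was thus 1.09 on day 4, 2.13-fold, and -0.14 on day 7. Without DAPT Gata3 was higher on day 7 by 0.67, and with DAPT it was lower by 0.55 on the log2 scale. The positive differences both use the untreated day 4 array, and the 3 other arrays spanned 7.01 to 7.56.

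The AP-2 genes, whose products mark surface ectoderm and act with p63 on keratin genes, had 3 probes each. For Tfap2c, the brightest probe read 8.22 without and 9.49 with DAPT on day 4, and, on day 7, 8.09 without and 8.56 with it. The second probe read 6.91, 7.58, 6.47 and 6.99, and the third, near background, 5.29, 5.30, 5.12 and 4.94. The DAPT difference on day 4 was thus 1.26, 0.67 and 0.01 by probe, and on day 7 it was 0.47, 0.52 and -0.18. The brighter probes placed Tfap2c higher with DAPT on both days, beyond the SD between probes, and the dim probe did not. From day 4 to day 7 with DAPT all 3 probes were lower, by -0.93, -0.59 and -0.36.

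Tfap2a was lower on day 7 by the 2 probes detected on every array. The brightest probe read 8.20 without and 8.46 with DAPT on day 4, and, on day 7, 7.89 without and 7.74 with it. The second brightest read 7.02, 6.85, 6.39 and 6.42 in the same order. Day differences were -0.30, within the SD between probes, and -0.62 by probe without DAPT, and -0.72 and -0.43 with DAPT. The DAPT differences, 0.27 and -0.17 on day 4 and -0.15 and 0.03 on day 7, differed in sign between the probes and lay within the SD between probes. The remaining Tfap2a probe was detected only without DAPT on day 4 and with DAPT on day 7, at deposited intensities of 21.0 and 14.7.

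**Figure D2:**
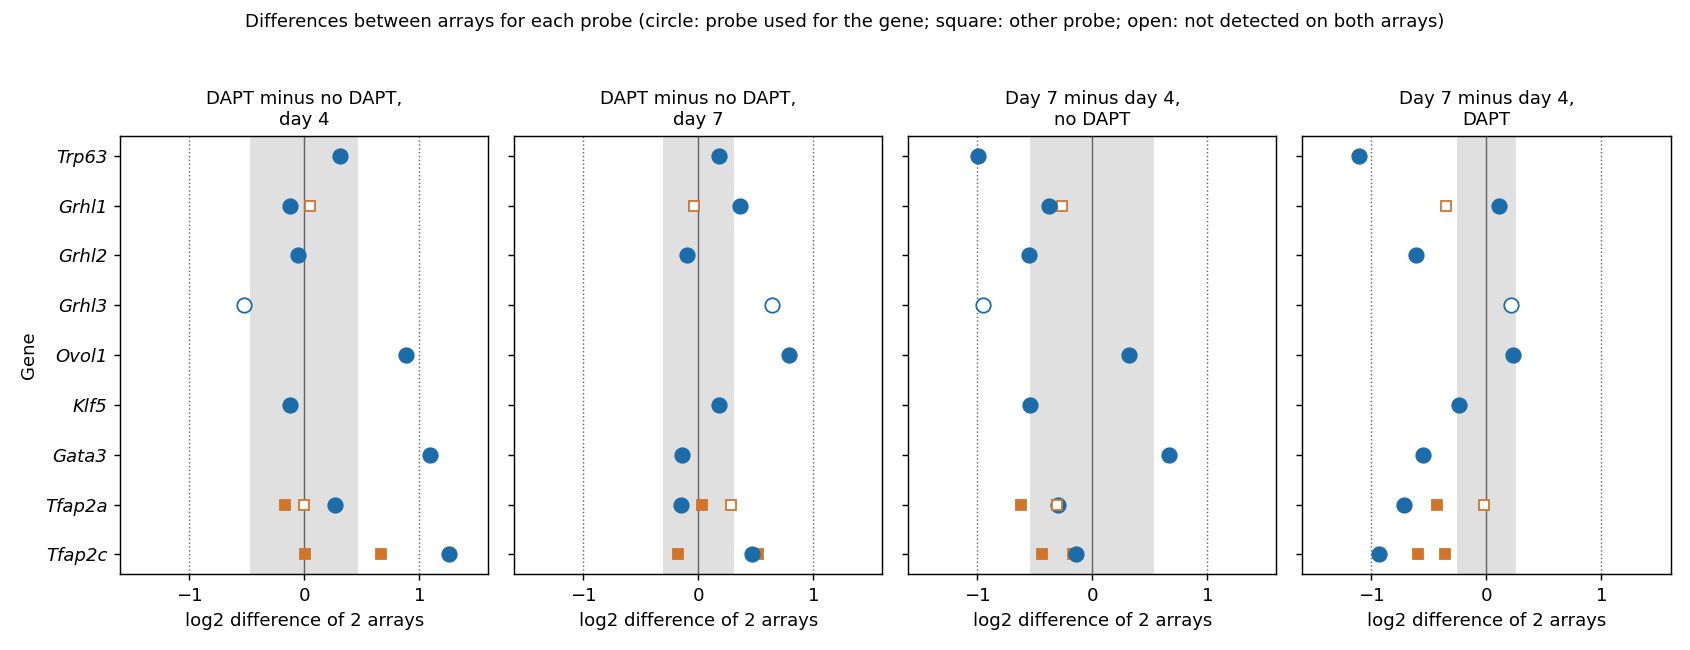
Log2 difference (x axis) of each probe of the 9 genes (y axis) in the 4 comparisons. Circles are the probe used for the gene, squares other probes, open symbols were not detected on both arrays, the grey band is the SD between probes of a gene and dotted lines mark 2-fold. Ovol1 lay right of the band with DAPT on both days, and Trp63 lay left of it between days in both treatments.

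With DAPT, few of the 9 genes reached 2-fold. On day 4, 2 of the 9 were at least 2-fold higher, Tfap2c and Gata3, where 3.81% of the 9913 genes tested were, and 0 were at least 2-fold lower, where 3.60% were. With median scaling 0 were at least 2-fold higher, with Gata3 at 0.72, and with an offset of 50 or the mean over probes 1 was. Of all genes, 199 of 9913, 170 of 9913 and 286 of 9950 were, in this order. The median difference of the 9 was 0.27, beside 0.08 over all genes. Of the 9, 5 were above 0 and 4 below, where 5533 and 4374 of 9913 genes were. On day 7, 0 of the 9 were at least 2-fold higher (1.71% of 9705 genes) and 0 at least 2-fold lower (0.495%). The median was 0.18, beside -0.05 over all genes, with 6 above 0, where 4277 of 9705 genes were. With median scaling in place of quantile normalization the day 4 median was -0.04 beside -0.10 over all genes, with 4 above 0, and the day 7 median was 0.43 beside 0.17, with 9 above 0. Ovol1, Tfap2c and Trp63 were above 0 on both days under each scaling tried, and Tfap2a, Grhl2 and Gata3 changed sign on 1 day or both.

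Between the days the genes leaned lower. Without DAPT, 7 of the 9 were lower on day 7, where 4332 of 9879 genes were. The median was -0.38 beside 0.09 over all genes. Of the 9, 0 reached 2-fold, where 7.49% of 9879 genes were at least 2-fold higher and 6.58% at least 2-fold lower. With DAPT, 6 of the 9 were lower, where 5207 of 9860 genes were. At 2-fold, 1 of the 9, Trp63, was lower, where 2.05% of genes were, and 0 were higher, where 3.07% were. The median with DAPT was -0.55 beside -0.03 over all genes. Trp63, Grhl2, Klf5, Tfap2a and Tfap2c were lower on day 7 in both treatments, Ovol1 higher in both, and Grhl1, Grhl3 and Gata3 differed in sign between the treatments. With median scaling the medians were -0.75 and -0.36, with the same 7 and 6 below 0 in number. These comparisons share arrays with those of DAPT, so they are not independent of them.

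The one test that the 4 arrays allow is a limma model that adds an effect of day to one of DAPT, whose single residual degree of freedom is the difference between the DAPT effects of the 2 days. limma gave every gene the same pooled SD of 0.384, so its p-values rest on that pooling over genes and not on the spread of each gene. None of the 9 genes passed an adjusted p of 0.05 for either effect. For DAPT, 11 of 10359 genes rose (0.106%) and 1 fell (0.00965%), and for day 120 rose (1.16%) and 70 fell (0.676%). At an unadjusted p under 0.05, 2 of the 9 stood out for DAPT, where 203 of all genes (1.96%) did, and 1 for day, where 975 (9.41%) did. Tfap2c differed by 0.87 with DAPT (SE 0.38, limma unadjusted p = 0.0238, adjusted p = 1.0) and Ovol1 by 0.84 (SE 0.38, limma unadjusted p = 0.0292, adjusted p = 1.0). Trp63 differed by -1.05 between the days (SE 0.38, limma unadjusted p = 0.0063, adjusted p = 0.176), lower on day 7 in both treatments. Its adjusted p lay between 0.129 and 0.641 over 9 alternatives.

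**Figure D3:**
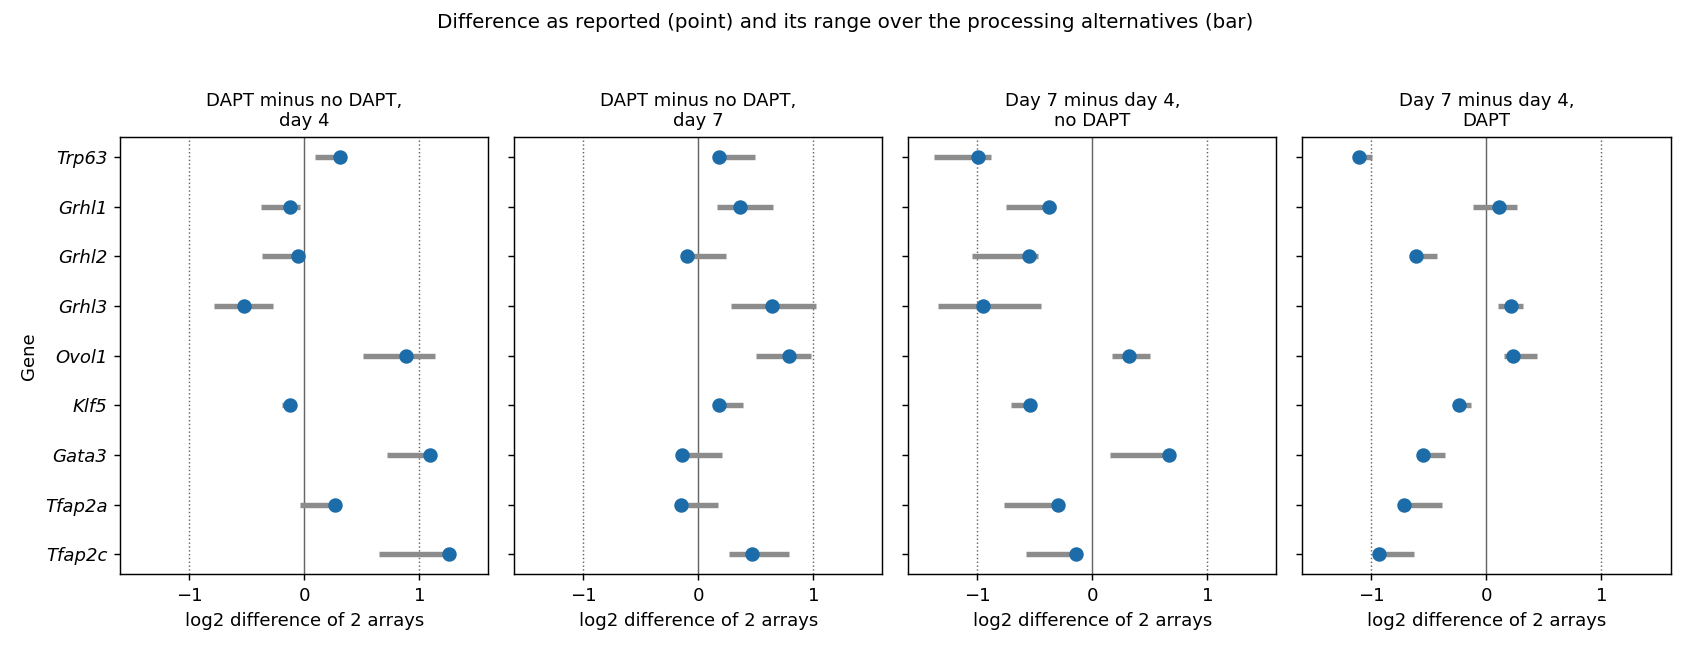
Log2 difference of the probe used for each gene (points, x axis) with its range over the processing alternatives (bars), for the 9 genes (y axis) in the 4 comparisons. Dotted lines mark 2-fold. The Trp63 day differences stayed between -1.38 and -0.88, and the Ovol1 DAPT differences between 0.50 and 1.14.

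Genes known to be bound by p63, or to depend on it, were set beside Trp63. The list gives no direction of regulation. Of 16 on the array, 14 were detected in each comparison. Without DAPT, 5 of them were at least 2-fold lower on day 7 and 0 higher, with a median of -0.58 and 11 below 0. Of all 9879 genes, 6.58% were at least 2-fold lower, 7.49% were at least 2-fold higher and 4332 were below 0. The 5 lower genes of the list were Krt5, the basal layer keratin, at -2.92, Sfn, the 14-3-3 sigma cell cycle regulator, at -2.79, Col17a1, a hemidesmosome collagen, at -2.07, and the integrin subunits Itga3 at -1.52 and Itgb4 at -1.27. With DAPT, Krt5 at -2.23, Col17a1 at -1.96 and Itga3 at -1.45 were at least 2-fold lower, where 2.05% of 9860 genes were. The median of the list was -0.53 and 11 were again below 0, where 5207 of 9860 genes were. At the other end stood Perp, a desmosome protein gene, at 0.73 without DAPT, and Fgfr2, a growth factor receptor gene, at 0.50 with DAPT, where the day 4 array did not detect it. In the additive limma model 4 of 15 fell between the days and 0 rose, where 0.676% and 1.16% of 10359 genes did. Krt5 fell by 2.58 on the log2 scale (adjusted p = 3.43e-08), Col17a1 by 2.01 (adjusted p = 4.25e-05), Sfn by 1.65 (adjusted p = 0.00213) and Itga3 by 1.48 (adjusted p = 0.0102). With median scaling 0 of the 10359 genes passed in limma, with 653 at an unadjusted p under 0.05, and the adjusted p of these 4 lay between 0.405 and 0.781. Their differences there were -2.62 for Krt5, -2.14 for Col17a1, -1.70 for Sfn and -1.54 for Itga3, no smaller than as reported. Krt5, Krt14, Col17a1, Itga6, Itgb4 and Perp are also among the keratinocyte markers whose sum is given above. The Sfn difference was -0.52 with DAPT, where the untreated day 4 array does not enter. With the mean over probes its day difference in the additive model was -1.07.

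With DAPT the same p63 list had medians of 0.26 on day 4 and 0.16 on day 7. Col17a1 was higher on both days, at 1.04 and 1.15, and Krt5 stood at 1.0 on day 4, just under 2-fold, and at 1.70 on day 7. Sfn differed by -1.59 on day 4 and 0.68 on day 7, and Perp by -0.65 on day 7. None of the list passed the additive limma model for DAPT, with adjusted p over all genes.

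Genes known to be bound by Grainyhead-like factors, or to depend on them, had 9 of 11 detected. Their medians were -0.21 and 0.14 with DAPT on day 4 and day 7, and -0.30 and -0.36 between days without and with DAPT. Without DAPT, Tgm1, the transglutaminase of the cornified envelope, at -1.66 and Rab25, an epithelial trafficking GTPase, at -1.11 were at least 2-fold lower on day 7, and Prom2, a membrane protrusion glycoprotein gene, at 1.21 was higher. Of all 9879 genes, 6.58% were at least 2-fold lower and 7.49% at least 2-fold higher. With DAPT, 0 of the 9 reached 2-fold between days, with Prom2 at 0.85 and Ovol2 at -0.96 as the extremes. On day 4 DAPT differences ran from -0.94 for Arhgef19 to 0.61 for Ovol2, and on day 7 from -0.49 for Esrp2, an epithelial splicing factor, to 0.65 for Tgm1. None passed the additive limma model for day or DAPT.

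**Figure D4:**
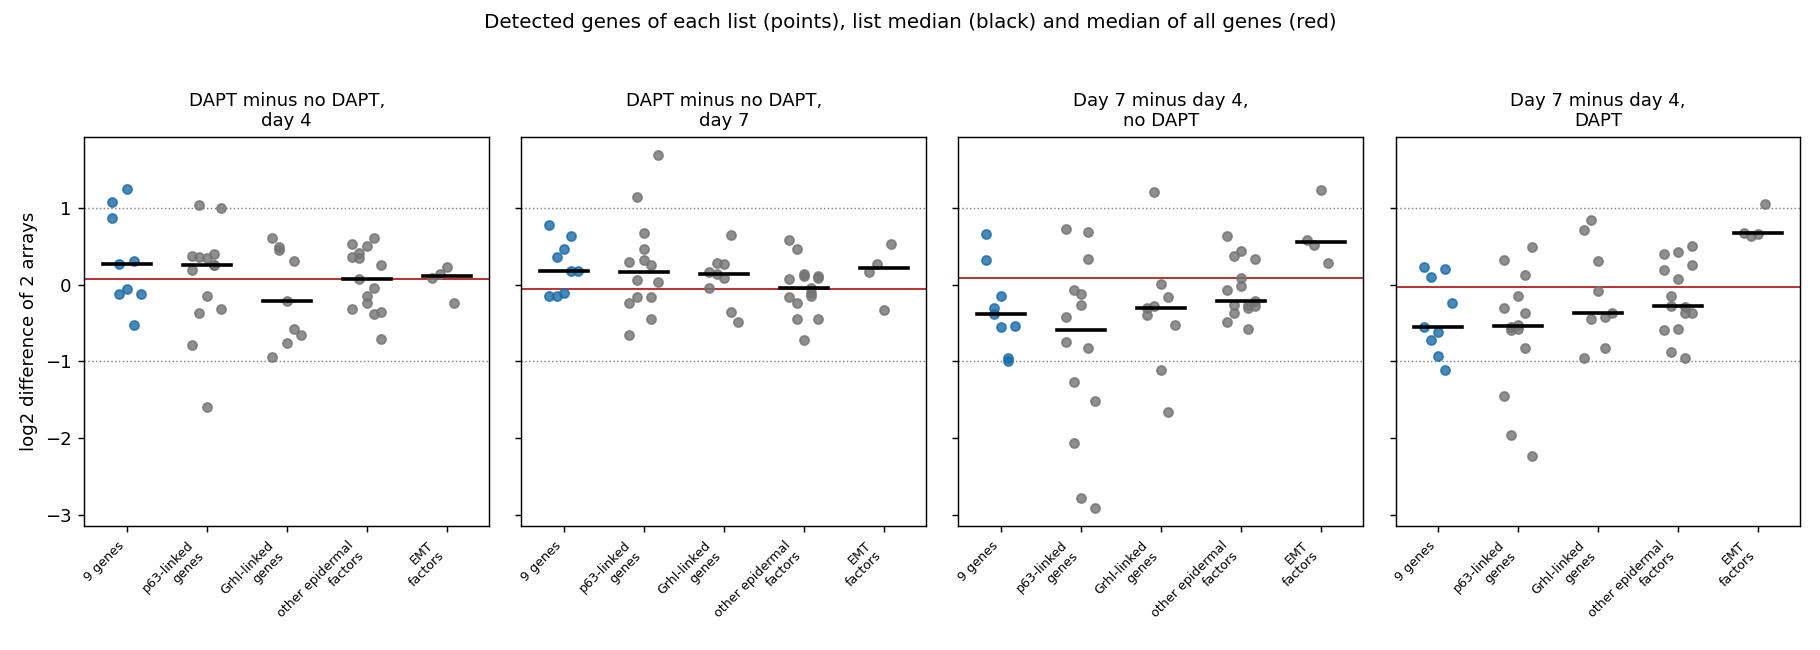
Log2 difference (y axis) of each detected gene of the 9-gene set and of 4 other lists (x axis) in the 4 comparisons. Black bars are list medians, the red line is the median of all genes tested and dotted lines mark 2-fold. Between days without DAPT the p63-linked genes reached down to -2.92, while the 9 factors stayed above -1.0.

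Of the other epidermal transcription factors, 15 of 21 were detected, and they differed by less than 2-fold in each comparison. Their medians were 0.08 and -0.04 with DAPT on day 4 and day 7, and -0.21 and -0.28 between days without and with DAPT. The extremes with DAPT were Ovol2, the relative of Ovol1, at 0.61 and Runx1 at -0.70 on day 4, and Cebpb at 0.59 and Msx2 at -0.72 on day 7. Between days they were Klf4, a factor of differentiating layers, at 0.64 and Vdr, the vitamin D receptor gene, at -0.57 without DAPT, and Runx1 at 0.51 and Ovol2 at -0.96 with DAPT. The labels do not name the transduced factors, so whether the Klf4 probe also read RNA of a transduced gene cannot be told. Median scaling placed 1 of the 15 at least 2-fold lower with the inhibitor on day 4, and 1 between days without it. Of all genes, 678 of 9913 and 1217 of 9879 were, in this order.

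Of the family relatives of the 9 genes, 7 or 8 of 13 were detected and 0 reached 2-fold in any comparison. With the authors' values 2 passed 2-fold upward under DAPT on day 4, 1 was higher between days without DAPT and 1 lower with it, and without background correction 1 was lower between days with DAPT. Of all genes, 454 of 9913, 849 of 9879, 326 of 9860 and 259 of 9860 were, in this order. The medians of the relatives were 0.45 and 0.04 with DAPT on day 4 and day 7, and 0.39 and 0.04 between days without and with DAPT. With DAPT, Gata2 at 0.79 and Tfap2b at -0.10 were the extremes on day 4, and Tfap2b at 0.67 and Tfcp2 at -0.54 on day 7. Between days Tfcp2 stood at 0.94 and Ovol2 at -0.30 without DAPT. With DAPT Tfap2b stood at 0.49, and Tfap2e, not detected on day 7, was at least 1.79-fold lower.

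The transcription factors of epithelial-mesenchymal transition are known to be in mutual repression with Ovol and Grainyhead-like factors. Of those listed, Snai2 was not among the genes measured, and 4 of 4 others were detected. Their day medians were 0.56 without and 0.67 with DAPT, with 4 of 4 above 0 in each, where 5539 of 9879 and 4642 of 9860 genes were. In each, 1 of 4 was at least 2-fold higher, Zeb1 at 1.24 without DAPT and Zeb2 at 1.06 with it, where 7.49% and 3.07% of genes were. The lowest were Zeb2 at 0.29 without and Twist1 at 0.64 with DAPT. With median scaling 3 of 4 were above 0 without DAPT, with a median of 0.07. With DAPT their medians were 0.11 on day 4 and 0.22 on day 7, from -0.23 for Zeb2 to 0.23 for Zeb1 and from -0.33 for Zeb1 to 0.54 for Zeb2, and the day 4 median was -0.24 with median scaling. None passed the additive limma model. The mesenchymal marker sums given above were also higher on day 7, and their part was not tested.

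Among the 8256 genes detected on all arrays, likeness was measured as the Euclidean distance between log2 values centred on each gene's mean over the 4 arrays. Within the set the nearest pair was Grhl2 and Tfap2a, at 0.23, followed by Grhl2 and Klf5 at 0.28 and Grhl1 and Klf5 at 0.29. The farthest was Trp63 and Ovol1, at 1.45. For Grhl2, 2.06% of the other genes were nearer than Tfap2a. Trp63 was nearest within the set to Grhl2, at 0.57, with 2.24% of genes nearer. The genes most like Trp63 were Tpx2 at 0.08, Epgn at 0.15 and Dlgap5 at 0.18. Those most like Ovol1 were Inhbb at 0.17, Timeless at 0.20 and Serpinb12 at 0.20. For Gata3 they were Ipmk, Wee1 and Zfp738 (0.05 to 0.08), and for Tfap2c Slc1a1, Atp6v1c2 and Prl2c4 (0.21 to 0.26). For Tfap2a they were Mgat4c, Mtmr9 and Aadac (0.04 to 0.07), and for Klf5 Ephb4, Tubb6 and Fancc (each 0.05). For Grhl1 they were Mrpl53, Lsm7 and Dsg2 (0.03 to 0.04), and for Grhl2 Fbxl8, Pmaip1 and Osbpl3 (0.01 to 0.06). With 4 values per gene and 8256 genes, near matches are numerous, and these names are a description of the 4 arrays.

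Promoter windows from RefSeq, assembly GRCm38.p6, were matched to 4 of the 9 genes by symbol, with 6 windows in all, each the 250 bases before a transcription start. The windows of Grhl3 and Gata3 are shown, because these genes had the widest difference between their DAPT effects on day 4 and day 7. Capitals mark matches on either strand to the motifs searched: AACCGGTT of Grainyhead-like factors, GCCNNNGGC of AP-2, AGATAA of GATA factors, CACCC of Krueppel-like factors, TGGGAA of RBPJ, the DNA-binding partner of Notch, and TGANTCA of AP-1. The Grhl3 window, chr4:135573633-135573882 on the minus strand, lies directly upstream of the annotated gene. The Gata3 window, chr2:9878601-9878850 on the minus strand, lies within the annotated span of the gene.
Grhl3: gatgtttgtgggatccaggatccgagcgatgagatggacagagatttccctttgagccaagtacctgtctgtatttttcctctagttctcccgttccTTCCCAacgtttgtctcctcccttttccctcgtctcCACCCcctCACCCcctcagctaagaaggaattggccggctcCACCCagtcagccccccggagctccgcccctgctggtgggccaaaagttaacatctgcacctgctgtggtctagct
Gata3: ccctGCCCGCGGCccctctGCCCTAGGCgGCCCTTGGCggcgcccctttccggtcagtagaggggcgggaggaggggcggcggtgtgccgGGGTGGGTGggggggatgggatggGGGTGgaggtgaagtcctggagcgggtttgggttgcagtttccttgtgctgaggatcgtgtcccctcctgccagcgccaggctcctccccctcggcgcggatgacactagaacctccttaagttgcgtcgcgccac
The Grhl3 window held 3 matches to CACCC and 1 to TGGGAA, the latter on the other strand. The Gata3 window held 3 matches to GCCNNNGGC and 3 to CACCC on the other strand, and a pair of the latter overlap. Over all 32851 windows of this length, 52.0% held CACCC, 21.6% TGGGAA, 13.7% GCCNNNGGC, 9.99% AGATAA, 6.75% TGANTCA and 0.116% AACCGGTT. The GC content was 56.0% for Grhl3 and 70.0% for Gata3, beside a median of 52.4%. Of the 4 remaining windows, 1 of Grhl1 held GCCNNNGGC, the other CACCC, 1 of Tfap2a held CACCC and TGGGAA, and its other window none of the 6 motifs. These matches are letters in a window and not sites shown to be bound.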

How the data were processed

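RNA of 4 mouse keratinocyte samples was measured on 4 Illumina bead arrays, 1 per group. The table deposited by the authors gives probe intensities that were not normalized, with a detection p-value for each; values below 0 show that background had been subtracted. The analysis software named is BeadStudio, per the submitters' processing notes. A deposited value table holds the authors' normalized intensities, which served as an alternative; how they were normalized is not stated. The intensities were corrected by normexp with an offset of 16, quantile normalized and taken to log2 with neqc of limma 3.58.1 in R 4.3.3; log2 values are thus computed from the deposited intensities.

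Genes were named from the platform annotation, which gave 23978 of 25697 probes 1 symbol and 1719 none. A gene was represented by its probe with the highest mean, and 4777 genes had more than 1 probe. A gene entered a comparison if detected (p under 0.01) on at least 1 of its 2 arrays. Single differences carry no p-value. An additive limma model (day and DAPT, 10359 genes, 1 residual degree of freedom, infinite prior degrees of freedom and thus 1 pooled SD of 0.384 for all genes, Benjamini-Hochberg adjustment) was tested on simulated data with 200 changed genes: it recovered 26.9% of changes of 1 log2 unit and 98.5% of changes of 2 for day (5 false calls), and 22.4% and 98.5% for DAPT (9 false calls). The simulated noise was independent, normal and of that 1 SD for every gene and array, as the model assumes. The real pairs of arrays differed in their SD between probes, so these figures do not measure recovery or false calls on the real arrays.

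All 9 genes and their probes are named; of the other gene lists except the marker lists, the highest, the lowest and each gene at least 2-fold different in a comparison, and for each of the 9 genes detected on all arrays the 3 nearest genes. The genes and lists were chosen with earlier results of these data known. Alternatives changed the background correction, offset, scaling, probe choice, detection rule, fold threshold and model. Python 3.11.15 with pandas 2.3.3 served for summaries and matplotlib 3.10.9 for figures.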

Additional observations from a re-analysis of the deposited data

Results flagged for a closer look

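For 5 of the 9 genes the difference with DAPT had opposite signs on day 4 and day 7, with 1 array on each side, and the change of sign was not tested. The difference on day 7 minus that on day 4 was -1.23 for Gata3, 1.16 for Grhl3, 0.48 for Grhl1, -0.42 for Tfap2a and 0.30 for Klf5, in log2 units. Opposite signs were also the state of 5882 of the 9259 genes detected on both days, or 63.5%. Grhl3 was undetected on 1 array of each day, and with median scaling the Gata3 and Tfap2a day 7 differences were above 0.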

How the results depend on the processing

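No paired analysis was possible because each group had 1 array and the labels give no replicate numbers; the additive model does compare DAPT within each day. At a 1.5-fold threshold, 3 members were higher with DAPT on day 4, where 1610 of 9913 genes were. With DAPT on day 7, 2 were higher, where 719 of 9705 genes were. Between days without DAPT 1 was higher and 2 lower, where 2176 and 1565 of 9879 genes were. Between days with DAPT 4 were lower, where 929 of 9860 genes were. Without background correction 1 member passed 2-fold upward under DAPT on day 7, and 1 downward between days without DAPT, where 213 of 9705 and 729 of 9879 genes did. With an offset of 50, or the mean over probes, 1 member was higher with DAPT on day 4, where 170 of 9913 and 286 of 9950 genes were. With median scaling the day 4 median with DAPT was -0.04, 0 members were 2-fold higher there, 2 were lower between days without DAPT and 0 with DAPT. Of all genes, 199 of 9913, 1217 of 9879 and 129 of 9860 were, in this order. With the authors' values 3 members were higher with DAPT on day 4, Ovol1 at 1.14 among them, and 1 was lower between days without DAPT. Of all genes, 454 of 9913 and 767 of 9879 were, in this order. On day 4 Gata3 was at 0.86 with an offset of 50 and 0.72 with median scaling, and Tfap2c at 0.65 with the mean over probes. Median scaling turned the sign of Tfap2a on day 4 and of Grhl2, Gata3 and Tfap2a on day 7 with DAPT, and of Grhl3 (DAPT) and Gata3 (day) in the additive model; the authors' values also turned Grhl3, and the mean over probes turned Tfap2a with DAPT on day 7 and Grhl1 between days with DAPT. The cause was not tested.

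The additive limma model called 12 genes for DAPT, but 1 with an offset of 50, 3 with the authors' values, and 0 with median scaling (140 at unadjusted p under 0.05), the mean over probes (187), no detection filter (337) or day left out (93). For day it called 190, but 82 with an offset of 50, 40 with the mean over probes, 1 with DAPT left out and 0 with median scaling (653) or no filter (1170). The calls of Krt5, Col17a1, Sfn and Itga3 were lost with median scaling, no filter and DAPT left out, at differences no smaller than as reported, those of Itga3 and Sfn also with the authors' values (limma adjusted p = 0.0592 and 0.0709) and the mean over probes (0.0895 and 0.418), and that of Sfn with an offset of 50 (0.145). Over all genes, those at least 2-fold higher and lower with median scaling were 199 and 678 with DAPT on day 4, 350 and 18 with DAPT on day 7, 332 and 1217 between days without DAPT, and 427 and 129 with DAPT. With the authors' values they were 263 and 136 with DAPT on day 7, and with an offset of 50 170 and 193 on day 4, and 62 and 13 on day 7. The number of arrays limits the precision.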
